A study of Sus scrofa with 9 samples.

Results

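The expression of genes that start, restrain and dissolve blood clots was followed in porcine coronary arterial endothelial cells, the lining of the arteries that feed the heart. The set held F3, TFPI, TFPI2, THBD, PROCR, VWF, PLAU, PLAUR, PLAT and SERPINB2. Its members were the probe sets whose platform annotation gives exactly 1 gene symbol that is on this list, which came to 11 of the 24123 probe sets of the array. They covered 9 of the 10 genes, because no probe set in the annotation used here carried the symbol PLAUR. The array named 6765 genes by such probe sets. VWF had 3 probe sets and every other gene had 1.

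The arrays formed 3 groups of 3. Passage 4 cells had been passaged every week in culture and are termed senescent in the labels. Regenerated cells had grown back in the animal after the endothelium was stripped off, and were scraped from the vessel and cultured with no passage. Passage 1 cells, cultured for 1 week, were the controls. All cells were at basal conditions, no drug or allele is named, and the number of pigs is not stated. Arrays of a group are therefore not known to be separate animals, and each p-value reflects array-to-array spread, possibly only technical. Labelled RNA was prepared from 0.5 to 1 ug of total RNA for regenerated cells and from 1 ug for the other groups, so input and group cannot be told apart there.

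Tissue factor, encoded by F3, binds factor VII and sets off the cascade that ends in thrombin and fibrin. Resting endothelium holds the cascade back with tissue factor pathway inhibitor and with thrombomodulin and the endothelial protein C receptor, which turn thrombin towards activation of the anticoagulant protein C. Fibrin is dissolved by plasmin, which tissue-type and urokinase-type plasminogen activators release from plasminogen and which serpins limit by blocking those activators.

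The values are MAS5 signals, the array maker's summary of the probes of a probe set, on a linear scale. Differences between groups are on the scale log2(signal + 16), which understates the change of dim genes. A probe set counted as past the threshold when its adjusted p in limma was under 0.05, over all 15299 probe sets tested. Of the 11 probe sets 9 were tested, 1 for each gene, because 2 VWF probe sets were too dim.

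Array medians ran from 86.5 to 109, and arrays correlated across tested probe sets with r from 0.937 to 0.974 within groups and from 0.898 to 0.946 between groups. The brightest probe sets of the endothelial genes PECAM1 and CDH5 were at 5519.6 to 9079 and 8524 to 11246 over the 9 arrays. KDR lay under the 40th percentile of every array. Of 11 listed endothelial markers 9 had a probe set and 8 were tested, and 6 of the 8 had a log2 difference below 0 in each group against passage 1. Among them NOS3 fell at passage 4 (-0.97, adjusted p = 0.0450) and CLDN5 fell in regenerated cells (-1.62, adjusted p = 0.0134). A second PECAM1 probe set was at 1241 to 2378 in regenerated cells and 2944 to 4984 at passage 1, and fell in regenerated cells (-1.14, adjusted p = 0.0253). The adjusted p of CLDN5 was 0.0287 with the labelling kind, defined from spike-in transcripts, as a block, and NOS3 and this PECAM1 probe set did not pass (0.480 and 0.0544). A second CDH5 probe set was at 2706 to 3311 at passage 4, 293 to 1845 in regenerated cells and 1633 to 1915 at passage 1. It was higher at passage 4 than in regenerated cells (2.31, adjusted p = 0.0139), a call lost under the block (2.16). Regenerated cells stood at -1.61 from passage 1 for it and did not pass (adjusted p = 0.0905). Summed fibroblast markers (6 of 8 with a probe set) were 498 to 639 at passage 4, 1270 to 2139 in regenerated cells and 278 to 348 at passage 1. COL3A1 was under the 40th percentile throughout. Summed smooth muscle markers (6 of 8) were 7696 to 23678, 20899 to 32674 and 9152 to 26248 in the same groups, with DES under that percentile. Leukocyte markers (8 of 11) summed to 132 to 168 at passage 4, 178 to 186 in regenerated cells and 105 to 424 at passage 1, the highest being passage 1 array 3. Among them 0 of 8 were bright enough to be tested. Bacterial spike-in transcripts divided the arrays into 2 kinds of labelling by the log2 difference of their 5′ and 3′ signals. The labels name no such batch, and the term labelling kind stands only for this difference. It was -2.09 to -1.77 in the passage 4 arrays and -1.99 in passage 1 array 1, against -5.19 to -4.36 for regenerated cells and -4.87 and -4.25 for arrays 2 and 3 of passage 1. The same 5′ to 3′ difference for GAPDH, a sign of RNA integrity, was -0.13, -0.76 and -1.04 in the 3 regenerated arrays, against 0.04 to 0.23 in all passage 4 and passage 1 arrays. What these markers, the GAPDH difference and the labelling contributed to the results below was not tested, beyond the values given with the labelling kind as a block.

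F3 was close to background at passage 4, and in regenerated cells it did not differ from passage 1 beyond the spread of the arrays. Its signal was 49.4, 16.9 and 16.6 at passage 4, 454, 1366 and 490.5 in regenerated cells, and 942, 994 and 635 at passage 1. All passage 4 arrays lay far below all others, while regenerated and passage 1 arrays overlapped, with regenerated array 2 the highest of the 9. At passage 4 F3 fell by 4.38 on the log2 scale against passage 1 (SE 0.42, adjusted p = 5.91e-04), or 20.8-fold. It was also lower at passage 4 than in regenerated cells, by a log2 difference of -4.07 (SE 0.42, adjusted p = 5.65e-04), or 16.7-fold. Of the passage 4 arrays, array 1 alone was above its own 40th percentile for F3, and the folds are those of the log2(signal + 16) scale. Between regenerated and passage 1 cells the log2 difference was -0.31, with a 95% interval of -1.22 to 0.60 (adjusted p = 0.709). In RNA from whole cultures, fewer cells that express a gene and less RNA in each cell cannot be told apart.

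The fall of F3 against passage 1 had an adjusted p between 4.65e-04 and 0.00996 in the 19 alternative analyses, and its size there was -5.07 to -3.33. With the labelling kind as a block, where passage 4 is set against passage 1 array 1 alone, it was -4.54 (adjusted p = 0.00996). That array has no replicate of its kind, so the test assumes that it varies like the other arrays. Against regenerated cells, which share no labelling kind with passage 4, the block gave -4.31 and the call was lost (adjusted p = 0.0517).

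The inhibitor genes TFPI and TFPI2 did not pass in any comparison. TFPI, encoding tissue factor pathway inhibitor, was at 134, 326 and 141 at passage 4, 131, 49.5 and 75.3 in regenerated cells, and 122, 66.0 and 142 at passage 1. The passage 4 arrays all lay above the regenerated arrays but overlapped with passage 1. The log2 difference was 1.07 for passage 4 against regenerated cells (SE 0.41, adjusted p = 0.107), and 0.72 for passage 4 and -0.34 for regenerated cells against passage 1 (adjusted p = 0.369 and 0.667). Without regenerated array 1 the difference between passage 4 and regenerated cells was 1.38 and passed (adjusted p = 0.0498).

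TFPI2 encodes a related Kunitz-type inhibitor that acts mainly on plasmin and other proteases of the matrix. Its signal was 315, 575 and 203 at passage 4, 269, 243 and 199.8 in regenerated cells, and 144, 125 and 197 at passage 1. Every passage 4 and every regenerated array exceeded every passage 1 array, the closest being 199.8 and 197. The log2 differences from passage 1 were 1.05 at passage 4 (SE 0.33, adjusted p = 0.102) and 0.58 in regenerated cells (SE 0.33, adjusted p = 0.345). Their 95% intervals were 0.32 to 1.78 and -0.15 to 1.31. Passage 4 array 2 was the highest array for both TFPI and TFPI2.

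**Figure D1:**
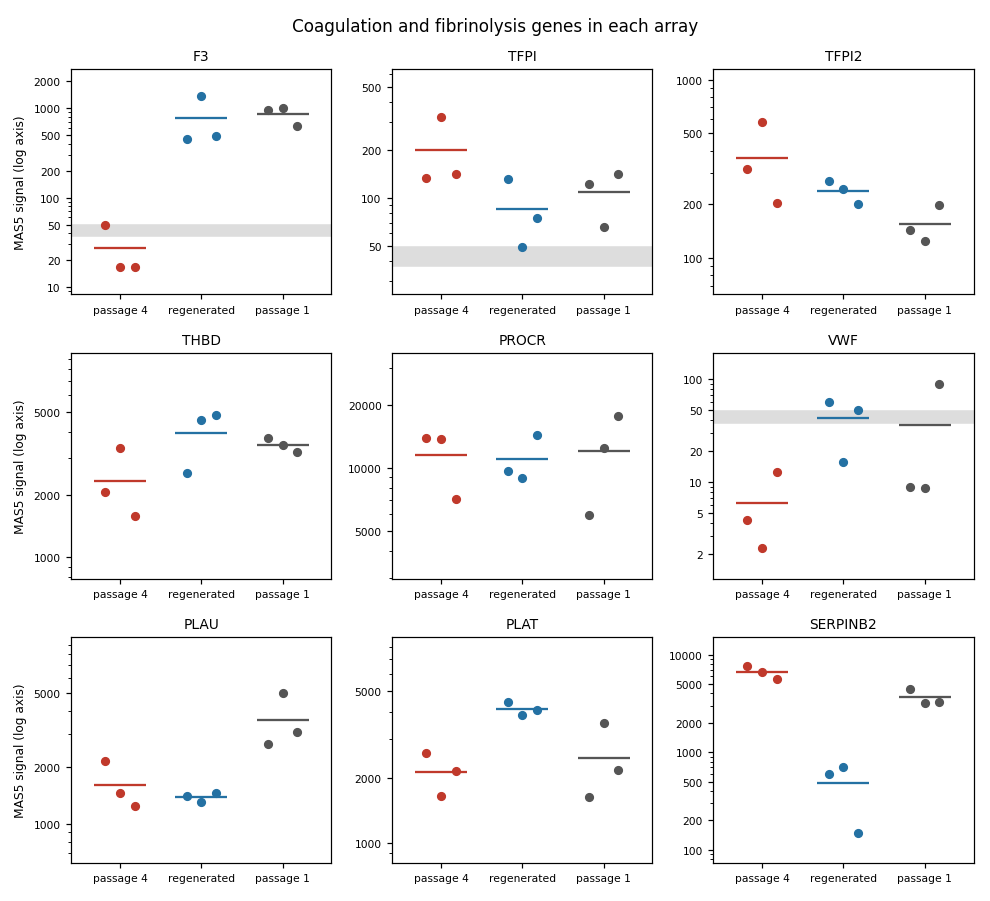
MAS5 signal on a log axis of the 9 tested probe sets, by group, with 1 point per array (replicates 1 to 3 from left to right) and a line at the arithmetic mean of 3 arrays. The grey band spans the 40th percentiles of the 9 arrays, 37.2 to 49.2, and the axes differ between genes. At passage 4 the F3 points lie at the upper edge of the band or under it, SERPINB2 separates the 3 groups, and PROCR overlaps in all of them.

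THBD and PROCR, which encode both endothelial receptors of the protein C pathway, showed no difference past the threshold. THBD, encoding thrombomodulin, was at 2064, 3341 and 1578 at passage 4, 2541, 4538 and 4795 in regenerated cells, and 3753, 3469.8 and 3199 at passage 1. Passage 4 arrays 1 and 3 were the lowest of the 9, and passage 4 array 2 fell among the other groups. The log2 difference of passage 4 was -0.64 against passage 1 (SE 0.28, adjusted p = 0.236) and -0.78 against regenerated cells (SE 0.28, adjusted p = 0.0949). The difference from regenerated cells passed without passage 4 array 2 (-1.07, adjusted p = 0.0400) and without regenerated array 1 (-1.07, adjusted p = 0.0217). Regenerated cells stood 0.14 from passage 1, with a 95% interval of -0.48 to 0.75.

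PROCR, encoding the endothelial protein C receptor, averaged 11562 ± 3859 at passage 4, 11003 ± 2920 in regenerated cells and 12016 ± 5859 at passage 1 (SD, n = 3 each). Its widest spread was within passage 1, whose arrays were at 5939, 12478 and 17629.8. The log2 differences were 0.02 for passage 4 and -0.02 for regenerated cells against passage 1, with 95% intervals of -0.78 to 0.81 and -0.82 to 0.77. With the labelling kind as a block they were 0.89 and -0.46 and neither passed (adjusted p = 0.342 and 0.378).

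VWF, the gene of von Willebrand factor, which tethers platelets and is a standard marker of endothelium, was dim in these cells. The tested probe set was at 4.26, 2.31 and 12.4 at passage 4, 60.2, 15.7 and 50.2 in regenerated cells, and 8.90, 8.82 and 89.8 at passage 1. It entered the test only because regenerated arrays 1 and 3 and passage 1 array 3 were above their 40th percentile. The log2 difference of passage 4 was -1.31 against regenerated cells (SE 0.55, adjusted p = 0.141) and -0.88 against passage 1 (SE 0.55, adjusted p = 0.432). Under the labelling block these VWF differences were -0.27 and -0.18, and without passage 1 array 3 the difference from passage 1 was also -0.18. The brightest VWF probe set was at 22.8 to 39.3 at passage 4, 39.5 to 52.1 in regenerated cells and 26.4 to 31.3 at passage 1. Its regenerated arrays all lay above the other arrays, by a log2 difference of 0.45 from passage 1 when dim probe sets were kept in the test (adjusted p = 0.404). The third probe set stayed at 19.1 or below in all 9 arrays.

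PLAU, encoding urokinase, the plasminogen activator of migrating cells and of tissue remodelling, was lower in both passage 4 and regenerated cells than at passage 1. Its signal was 2149.7, 1463 and 1238 at passage 4, 1401, 1302 and 1461 in regenerated cells, and 2672, 4957 and 3076 at passage 1. Every passage 1 array exceeded every other array, and passage 4 and regenerated arrays overlapped. PLAU fell by 1.12 on the log2 scale at passage 4 (SE 0.25, adjusted p = 0.0286), or 2.18-fold. It fell by 1.30 in regenerated cells (SE 0.25, adjusted p = 0.0133), or 2.46-fold. The difference between passage 4 and regenerated cells was 0.18, with a 95% interval of -0.37 to 0.73.

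The call of PLAU at passage 4 was lost without passage 1 array 2, the highest of the 9 (-0.86, adjusted p = 0.106). It was also lost without passage 4 array 2 (-1.07, adjusted p = 0.0980) or passage 4 array 3 (-0.95, adjusted p = 0.118). With the labelling kind as a block it was -0.76 (adjusted p = 0.346). It held in 12 of 19 alternatives. The fall in regenerated cells held in 18 of 19, with -1.48 under the labelling block (adjusted p = 0.0103), and was lost without regenerated array 2 (-1.26, adjusted p = 0.0604).

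PLAT encodes tissue-type plasminogen activator, the main activator of fibrinolysis that endothelium releases into blood. Its signal was 2603, 1637 and 2133 at passage 4, 4436, 3882 and 4082 in regenerated cells, and 1621, 3581 and 2168 at passage 1. The regenerated arrays were the 3 highest, with the closest array being passage 1 array 2. PLAT was lower at passage 4 than in regenerated cells by a log2 difference of -0.98 (SE 0.26, adjusted p = 0.0301), or 1.97-fold. Regenerated cells stood 0.82 above passage 1 (SE 0.26, adjusted p = 0.0895), a difference that was 0.56 under the labelling block (adjusted p = 0.182). It passed in 1 of 19 alternatives, without passage 1 array 2 (1.13, adjusted p = 0.0212). Passage 4 differed from passage 1 by -0.16, with a 95% interval of -0.72 to 0.41. The difference of passage 4 from regenerated cells was -0.20 under the labelling block (adjusted p = 0.823), and the call held in 11 of 19 alternatives. It was lost without passage 4 array 2 or 3 and without any 1 of the regenerated arrays (adjusted p from 0.0635 to 0.114).

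SERPINB2, encoding plasminogen activator inhibitor type 2, a serpin that blocks urokinase and tissue-type activator, separated the groups completely. Its signal was 7566, 6668 and 5655 at passage 4, 594, 701 and 147 in regenerated cells, and 4426, 3194 and 3291 at passage 1. All passage 4 arrays were above all passage 1 arrays, and all regenerated arrays were far below both groups. SERPINB2 fell by 3.12 on the log2 scale in regenerated cells against passage 1 (SE 0.43, adjusted p = 0.00255), or 8.72-fold. It was higher at passage 4 than in regenerated cells by 3.99 (SE 0.43, adjusted p = 6.90e-04), or 15.9-fold.

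The difference of SERPINB2 at passage 4 from passage 1, 0.87 on the log2 scale (SE 0.43, 95% interval -0.08 to 1.82), did not pass (adjusted p = 0.305). It passed when only these 2 groups were fitted (adjusted p = 0.0282) or when regenerated array 3, the array at 147, was left out (adjusted p = 0.0266). The 3 groups share an estimate of the spread, and both alternatives left the difference itself at 0.87. The fall in regenerated cells passed in all 19 alternatives, at -3.52 to -2.45, and was -2.98 with the labelling kind as a block (adjusted p = 0.00795). The difference between passage 4 and regenerated cells was 3.55 under that block and did not pass (adjusted p = 0.0831). Regenerated array 3, the lowest for SERPINB2, also had the lowest GAPDH 5′ to 3′ difference, -1.04. Regenerated array 2 had the next lowest, -0.76, but the highest SERPINB2 signal of its group, 701. Regenerated array 1 was at -0.13 and 594. The part of the GAPDH difference in the regenerated values of SERPINB2, PLAU and PLAT was not tested.

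**Figure D2:**
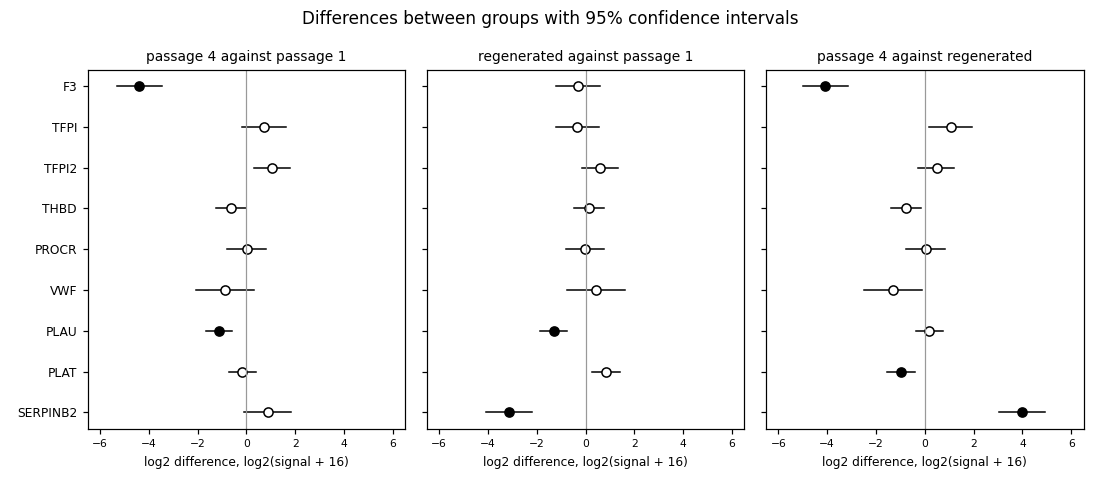
Log2 differences of the 9 tested probe sets in the 3 comparisons, with 95% confidence intervals from limma. Filled points are past the adjusted p threshold, F3 and PLAU in passage 4 against passage 1, PLAU and SERPINB2 in regenerated against passage 1, and F3, PLAT and SERPINB2 in passage 4 against regenerated cells.

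In passage 4 against passage 1 cells, 2 of the 9 tested probe sets fell (F3 and PLAU) and 0 rose. Of all tested probe sets 4.79% passed, 2.71% higher and 2.08% lower. At an unadjusted limma p under 0.05, 3 were lower and 1 was higher, TFPI2, so 4 of 9 against 19.7% of all. The arrays of both groups did not overlap for 4 of 9, against 24.9% of all tested probe sets. In regenerated against passage 1 cells 2 of 9 fell (PLAU and SERPINB2) and 0 rose, while 5.49% of all passed, 2.98% higher and 2.51% lower. At an unadjusted p under 0.05 there were 2 lower and 1 higher, PLAT, so 3 of 9 against 22.0% of all. There the arrays did not overlap for 4 of 9, against 23.0%. In passage 4 against regenerated cells 1 was higher (SERPINB2) and 2 were lower (F3 and PLAT), while 12.5% of all passed, 8.14% higher and 4.35% lower. At an unadjusted p under 0.05, 2 were higher and 4 were lower, so 6 of 9 against 28.6% of all. There 5 of 9 did not overlap, against 36.2%. Both of these counts include VWF, which entered the test only through regenerated arrays 1 and 3 and passage 1 array 3. The median size of the log2 difference, without its sign, was 0.87, 0.43 and 0.98 over the 9 probe sets in these comparisons, against 0.27, 0.30 and 0.34 over all. With sign, the medians were -0.16, -0.02 and 0.04, against 0.04, -0.01 and 0.01 over all. The comparisons share arrays and are not independent of each other, and 9 genes chosen with earlier results known are described here, not tested as a set.

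**Figure D3:**
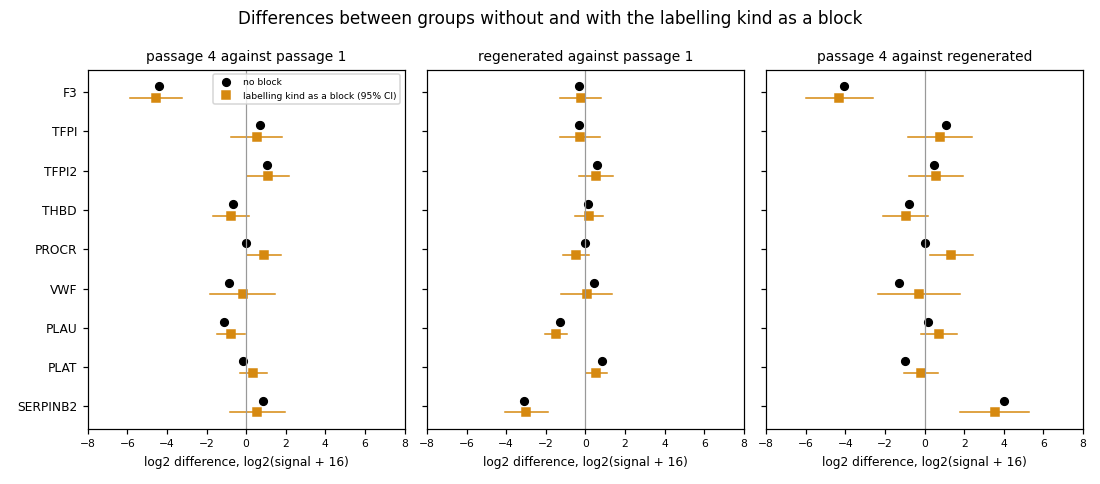
Log2 differences of the 9 tested probe sets without a block (black circles) and with the labelling kind as a block (orange squares, 95% confidence intervals). Under the block F3 was at -4.54 and -4.31 in the comparisons that involve passage 4, the second no longer past the threshold. SERPINB2 and PLAU stayed past it in regenerated against passage 1 cells, and PLAT in passage 4 against regenerated cells moved close to 0.

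With the labelling kind as a block, 1 of the 9 passed in passage 4 against passage 1 cells, which was F3, against 0.980% of all tested probe sets. At an unadjusted p under 0.05 there were 4, F3, TFPI2, PROCR and PLAU, against 13.3% of all. PLAU and SERPINB2 passed in regenerated against passage 1 cells, against 6.05% of all, and these and PLAT, 3 of 9, had an unadjusted p under 0.05, against 24.4%. In passage 4 against regenerated cells 0 of 9 passed in limma, against 0.229% of all, and 3 had an unadjusted p under 0.05, F3, PROCR and SERPINB2, against 18.0% of all. Those groups share no labelling kind, so the block compares them only through passage 1. Under the block, passage 4 against passage 1 rests on passage 1 array 1 alone, and its spread is taken from the other arrays.

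Other genes of clotting and fibrinolysis were taken from lists of 62 genes, of which 36 had a probe set and 23 were tested. At passage 4 against passage 1, 1 of 23 fell (SERPING1) and 0 rose, with a median log2 difference of -0.03. Of all tested probe sets 4.79% passed there. At an unadjusted limma p under 0.05 there were 4 higher and 4 lower of the 23, against 19.7% of all. In regenerated cells against passage 1, 3 rose (F2R, PROS1 and VKORC1) and 1 fell (SERPING1), with a median of 0.03, while 5.49% of all passed. The unadjusted counts were 4 higher and 2 lower, against 22.0% of all. In passage 4 against regenerated cells 1 was higher (THBS1, by its brightest probe set) and 2 were lower (F2R and PROS1). Another THBS1 probe set passed the other way, at -0.90 (adjusted p = 0.0196). The median was -0.26, while 12.5% of all passed. The unadjusted counts were 1 higher and 4 lower, against 28.6% of all. The 13 genes too dim to be tested were PROC, PLG, F8, F9, F12, FGB, FGG, KLKB1, KNG1, A2M, APOH, SERPINA5 and SERPIND1, most of which are known as products of the liver. F2RL1, which encodes a protease-activated receptor, had no probe set with that symbol.

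F2R, encoding the main thrombin receptor of the cell surface, was higher in regenerated cells than in both other groups. Its signal was 358, 641 and 631 at passage 4, 2466, 3471 and 1330.1 in regenerated cells, and 399.6, 449 and 352 at passage 1. The lowest regenerated array was above every array of the other groups. F2R rose by 2.45 in regenerated cells against passage 1 (SE 0.33, adjusted p = 0.00232), and by the same 2.45 with the labelling block (adjusted p = 0.00576). Passage 4 was below regenerated cells (log2 difference -2.06, SE 0.33, adjusted p = 0.00390) but not with the block (-2.07, adjusted p = 0.141). Fibroblast markers moved alongside, with 3 of 5 tested rising in regenerated cells against passage 1 and 0 falling. Of 5 tested smooth muscle markers 1 rose there (SMTN, 0.89, adjusted p = 0.0422, and 0.0809 with the block) and 0 fell. At passage 4 against regenerated cells 2 fibroblast markers (FAP and THY1) and 1 smooth muscle marker (CNN1) were lower and 0 were higher. With the block these were -4.09, -2.08 and -4.86, and none passed. Of the fibroblast markers that rose against passage 1, FAP and THY1 kept the call with the block (adjusted p = 0.00346 and 0.00922). LUM lost it (3.31, adjusted p = 0.0742). The part of these markers in the F2R difference was not tested. Nor was that of the GAPDH 5′ to 3′ difference in the regenerated values of F2R and PROS1.

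PROS1, encoding protein S, the cofactor of activated protein C, rose in regenerated cells against passage 1. It was at 3382, 3402 and 3285 at passage 4, 4373, 5139 and 5092 in regenerated cells, and 2873, 2050.4 and 2570.0 at passage 1. The 3 groups did not overlap. The log2 difference of regenerated cells from passage 1 was 0.97 (SE 0.15, adjusted p = 0.00521), and 1.08 with the labelling block (adjusted p = 0.00523). Passage 4 was lower than regenerated cells (-0.53, SE 0.15, adjusted p = 0.0442). With the labelling block this difference was -0.85 and did not pass (adjusted p = 0.149). The call held in 9 of 19 alternatives. It was lost on leaving out any 1 passage 4 array, regenerated array 2 or 3, or passage 1 array 3. Passage 4 stood 0.44 from passage 1 (adjusted p = 0.139).

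SERPING1, the gene of C1 inhibitor, which blocks complement and contact proteases, fell in both passage 4 and regenerated cells. Its signal was 785, 1063 and 484 at passage 4, 1173, 1142 and 1600.1 in regenerated cells, and 2805, 4215 and 3103 at passage 1, with no overlap of either group with passage 1. It fell by 2.14 at passage 4 (SE 0.27, adjusted p = 0.00223) and by 1.35 in regenerated cells (SE 0.27, adjusted p = 0.0164). With the labelling block these were -1.90 and -1.48 (adjusted p = 0.0471 and 0.0203). The regenerated call was lost without passage 1 array 2 (-1.18, adjusted p = 0.0543) or regenerated array 2 (-1.27, adjusted p = 0.0759). Passage 4 and regenerated cells differed by -0.79 (adjusted p = 0.0818), by -1.04 without passage 4 array 2 (adjusted p = 0.0450) and by -0.42 under the labelling block (adjusted p = 0.675).

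VKORC1, whose enzyme recycles the vitamin K that clotting factors need, averaged 2561 ± 408 at passage 4, 3172 ± 499 in regenerated cells and 1891 ± 249 at passage 1 (SD, n = 3 each). It rose in regenerated cells by 0.74 (SE 0.18, adjusted p = 0.0405), and the call held in 6 of 19 alternatives. With the labelling kind as a block the difference was 0.77 and did not pass (adjusted p = 0.0549). The call was kept on leaving out passage 4 array 2 or regenerated array 1, and lost on leaving out any other single array. ANXA2 and S100A10, which form a cell surface receptor for plasminogen and its tissue-type activator, did not pass in any comparison. Their log2 differences without a block lay between -0.00 and 0.24. With the labelling kind as a block S100A10 was at 0.82 for passage 4 and -0.11 for regenerated cells against passage 1. It was at 0.93 for passage 4 against regenerated cells. ANXA2 was at 0.14, 0.01 and 0.13 in the same order, and neither gene passed. SERPINE2, encoding a thrombin-inhibiting serpin, was at -1.13 at passage 4 (SE 0.32, adjusted p = 0.0698) and -0.64 in regenerated cells (adjusted p = 0.271) against passage 1. Without passage 1 array 1 the passage 4 difference was -1.45 and passed (adjusted p = 0.0134), and under the labelling block it was -0.48 (adjusted p = 0.649).

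The 5 probe sets of THBS1, the gene of thrombospondin 1, disagreed. The brightest was at 9386, 8886 and 7232 at passage 4, 3706, 2068 and 1023 in regenerated cells, and 8216, 1898 and 3076 at passage 1, where array 1 stood with the passage 4 arrays. It was higher at passage 4 than in regenerated cells by 2.08 (SE 0.50, adjusted p = 0.0196). Another THBS1 probe set went the other way, at 2105, 2419 and 2681 at passage 4, 3505, 6339 and 4013 in regenerated cells and 3042, 2605 and 2313 at passage 1 (log2 difference of passage 4 from regenerated cells -0.90, SE 0.22, adjusted p = 0.0196). With the labelling kind as a block these were 0.32 and -1.21, and neither passed (adjusted p = 0.837 and 0.158). Of the remaining THBS1 probe sets 2 were higher at passage 4 than at passage 1, by 1.32 and 2.57 (adjusted p = 0.0136 and 0.0411), and under the block by 1.41 and 0.65 (adjusted p = 0.0883 and 0.553). Against regenerated cells the same 2 probe sets were higher at passage 4, by 1.29 and 3.66 (adjusted p = 0.00803 and 0.00532). Under the block these were 1.42 and 0.78, and neither passed. The last THBS1 probe set was at -0.91 for passage 4 against regenerated cells and did not pass (adjusted p = 0.191). No direction is therefore given for THBS1.

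**Figure D4:**
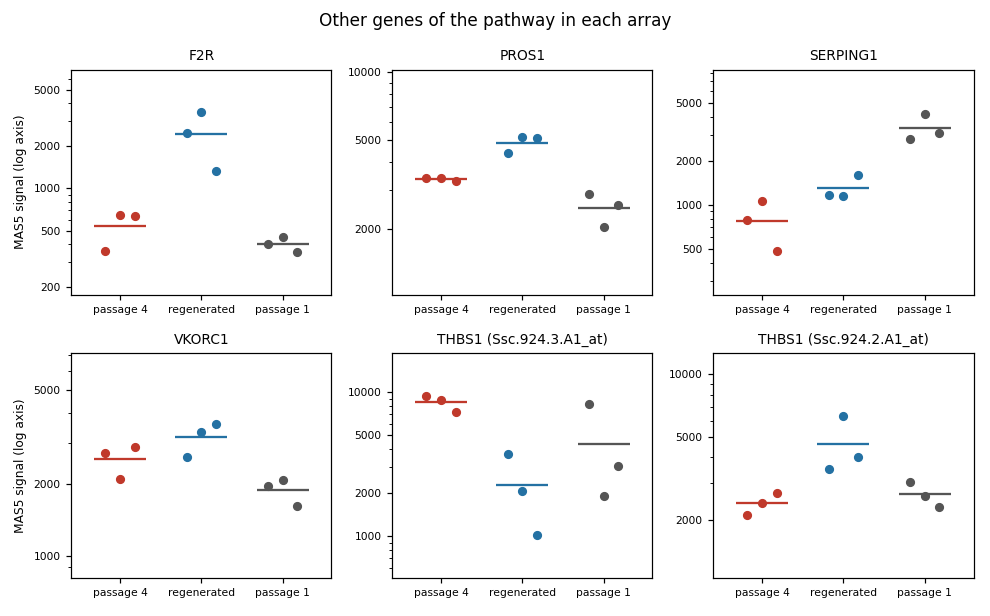
MAS5 signal on a log axis of F2R, PROS1, SERPING1, VKORC1 and 2 THBS1 probe sets, by group, with 1 point per array (replicates 1 to 3 from left to right) and a line at the arithmetic mean of 3 arrays. The axes differ between panels. F2R is high in the regenerated arrays, SERPING1 is high in the passage 1 arrays, and the THBS1 probe sets run in opposite directions.

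The tested genes whose log2 signals followed F3 most closely over the 9 arrays were TIAM2, SRGN, SLA-DQB1, RPUSD1 and HSPA2, with Pearson r of 0.954, 0.948, 0.942, 0.941 and 0.939. SRGN, the gene of the granule proteoglycan serglycin, was at 337, 305 and 231 at passage 4, 689.8, 1029.6 and 577 in regenerated cells, and 769.8, 869 and 1154 at passage 1. SLA-DQB1, a class II major histocompatibility gene, was at 118, 102 and 39.4 at passage 4, 345, 1343 and 669 in regenerated cells, and 487, 1272 and 1175 at passage 1. Both were lowest in the 3 passage 4 arrays. The genes most like PLAU were LPCAT3, TCIRG1, RAE1, CFD and HIVEP2 (r from 0.944 to 0.957). Those most like PLAT were GOT2, SLC45A3, SEC14L1, UROD and MAP4 (r from 0.951 to 0.961). Those most like SERPINB2 were CLN3, HUWE1, FAM136A, IPO5 and ACADSB (r from 0.960 to 0.973). The 9 points of each correlation are 3 groups of 3 arrays and share the groups' labelling, so these values describe likeness over these arrays only.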

How the data were processed

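RNA of 9 samples was hybridised to Affymetrix porcine arrays, 1 array per sample, in 3 groups of 3 named by the sample titles. Each deposited column holds linear intensities, 1 per probe set, made with MAS5 per the submitters' processing notes (version and scaling target not given in the sources used here). After trimming 2% from both ends, every array had a mean of 500.1, so nothing was rescaled. The number of arrays limits the precision.

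Leaving out 124 control probe sets, a probe set was tested when at least 3 arrays exceeded their own 40th percentile (15299 of 23999). Values were taken as log2(signal + 16) and fitted over all 9 arrays in limma 3.58.1 under R 4.3.3 (lmFit, eBayes with an intensity trend, 6 residual and 5.65 prior degrees of freedom). All tests were two-sided, and p-values were adjusted over all tested probe sets by Benjamini-Hochberg. The fit was tested on simulated data. Platform annotation named the genes, 198 probe sets with several symbols were left unnamed, and the members' symbols were the same in RefSeq genes of Sscrofa11.1. No genome build is given in the files, so no positions are printed.

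The members, lists and tests were chosen with earlier results of these data known. All members are described. Of the other listed genes, 7 were to be named whatever their result (1 of them is not reported here) and the rest if a probe set passed in any comparison, and the brightest probe set stands for a gene in counts. The 5 genes with the highest correlation are named for F3 and each member that passed. The alternatives were pseudocounts of 1 and 64, no filter or a 60th percentile filter, quantile normalization, median centring, no intensity trend, only the groups compared, the replicate number or the labelling kind as a block, and each array left out. The labelling kind divides arrays at the largest gap, 2.16, of the spike-in difference (the next gap was 0.32).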

Additional observations from a re-analysis of the deposited data

Results flagged for a closer look

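Passage 4 and regenerated cells were each set against passage 1, and for 3 of the 9 tested members the effects differed between them. This was tested as passage 4 against regenerated cells, where passage 1 cancels and 12.5% of all tested probe sets passed. For F3 the difference was -4.07 on the log2 scale (adjusted p = 5.65e-04), with F3 at -4.38 at passage 4 and -0.31 in regenerated cells against passage 1. For SERPINB2 it was 3.99 (adjusted p = 6.90e-04), with 0.87 at passage 4, which did not pass, and -3.12 in regenerated cells. For PLAT it was -0.98 (adjusted p = 0.0301), with -0.16 and 0.82, neither of which passed. With the labelling kind as a block these differences were -4.31, 3.55 and -0.20, and none passed (adjusted p = 0.0517, 0.0831 and 0.823). Of all tested probe sets 0.229% passed there.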

How the results depend on the processing

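Over 19 alternatives F3 in passage 4 and SERPINB2 in regenerated cells, each against passage 1, passed in every one. The count of members past the threshold in passage 4 against passage 1 was 2 of 9, against 4.79% of all tested probe sets. It was 1 without an intensity trend, with the replicate block and with the labelling kind as a block, where 0.980% of all passed. Leaving out 1 array at a time it was 1 to 3. In regenerated against passage 1 cells it was 2, against 5.49% of all, with 1 to 3 on leaving out an array. In passage 4 against regenerated cells it was 3, against 12.5% of all, with 2 to 4 on leaving out an array. There it was 2 with the replicate block, and 0 with the labelling kind as a block, against 0.229% of all. Without an intensity trend the call of PLAT in passage 4 against regenerated cells was lost (-0.98, adjusted p = 0.0554). Arrays share replicate numbers across groups, but the deviations of same-numbered arrays correlated with r from -0.14 to 0.19. In 1 of 9 such pairs of arrays the same number was the best match, so the numbers were not taken to pair them. The replicate block ended the calls of PLAU at passage 4 against passage 1 (-1.12, adjusted p = 0.0508) and of PLAT (-0.98, adjusted p = 0.0589), PROS1 (-0.53, adjusted p = 0.0833) and VKORC1 (0.74, adjusted p = 0.0814), and changed no other named gene. Why these calls changed was not tested.

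Genes that changed sign were not past the threshold under either setting. At passage 4 against passage 1, PROCR was -0.05 with quantile normalization and -0.03 with median centring, and -0.42 to 0.36 on leaving out an array. PLAT was there 0.36 with the labelling block and -0.41 to 0.15 on leaving out an array, S100A10 -0.05 to 0.45, and the other VWF probe sets 0.06 and 0.35. In regenerated against passage 1 cells PROCR was 0.01 with median centring, ANXA2 0.03 with median centring and 0.01 with the labelling block, S100A10 -0.11 and a THBS1 probe set -0.01 with that block. On leaving out an array they were -0.46 to 0.32 (PROCR), -0.11 to 0.14 (ANXA2), -0.11 to 0.40 (S100A10), -0.07 to 0.12 (THBS1) and -0.03 to 0.43 (THBD). In passage 4 against regenerated cells PROCR was -0.04 and S100A10 -0.03 with median centring, SERPINE2 0.48 with the labelling block, and another VWF probe set 0.10. On leaving out an array they were -0.13 to 0.36 (PROCR), -0.09 to 0.24 (S100A10) and -0.04 to 0.35 (PLAU).

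Over all probe sets the counts past the threshold were 733, 840 and 1912 in the 3 comparisons as ordered above. They were 150 and 35 with the labelling block in the comparisons that involve passage 4, 479 with only the groups compared and 554 with the replicate block in regenerated against passage 1 cells. Leaving out an array they ran over 244 to 1403, 291 to 1238 and 895 to 2406. Dim signal limits VWF and F3 at passage 4.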
